A study of Mus musculus with 12 samples.

Results

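Epithelial cells keep their identity partly through a small set of splicing regulators and transcription factors, and 8 of these genes were followed here in mouse mammary carcinoma cells: Esrp1, Esrp2, Rbm47, Grhl1, Grhl2, Ovol1, Elf3 and Ehf. They are 8 of the 19937 distinct genes that had a probe set with a single gene symbol on the array. Each of the 8 had exactly 1 such probe set and no probe set shared with another symbol, so no choice among probe sets was needed. Esrp1 was chosen by its measured signal, which was high in a single line, so its values are a description without a test, and the other 7 genes were tested.

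The cells are 4T1, a mammary carcinoma line of BALB/cfC3H background, carrying stable constructs of Mkl1 (now Mrtfa), which responds to actin and works with serum response factor to switch on genes. There were 4 lines with 3 arrays each: ΔSAP and mutB1, named for a change in the SAP and the B1 region of Mkl1, FL, read here as full-length Mkl1, and control. All 4 lines share the low-serum culture, 0.03% serum for 48 h before RNA extraction. The series design text describes triplicate cultures, and the labels name 1 stable line per construct. Construct and line therefore cannot be told apart, and a p-value measures the spread between cultures of a line. The sources used here do not give the promoter or the vector of the constructs.

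Values are log2 signals per probe set after RMA normalization by the authors, from Affymetrix Mouse Gene 1.0 ST arrays. The lowest and highest array medians were 6.35 and 6.45, and a line mean under 6.35 is called low here, since RMA gives no detection call and such a signal may be background. The precision is limited by the number of arrays, 3 per line. Signals of different genes come from different probes and are not set against each other. In these bulk samples fewer cells with a transcript and less transcript per cell cannot be told apart. Arrays of the same line correlated across probe sets at r = 0.995 to 0.997, and arrays of different lines at 0.988 to 0.995. Mkl1 RNA itself averaged 11.92 ± 0.04 in ΔSAP, 11.29 ± 0.11 in mutB1, 12.08 ± 0.06 in FL and 9.27 ± 0.01 in the control line (SD, n = 3 each). It was 0.79 lower on the log2 scale in mutB1 than in FL (limma adjusted p = 2.79e-06) and 0.63 higher in ΔSAP than in mutB1 (adjusted p = 1.73e-05). It was not checked whether Mkl1 probes fall in the regions changed in mutB1 and ΔSAP, so a lower signal there need not mean less RNA. The part of these Mkl1 differences in the results that follow was not tested.

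The cell type label was checked against 12 epithelial markers. The mean was at or above 6.35 for 11 of them in ΔSAP, 10 in mutB1, 11 in FL and 11 in the control line. Cldn7, a tight junction claudin, was low in every line, and Krt19, a keratin of simple epithelia, was low in mutB1 only (6.18). The summed log2 signal of the 12 markers ranged over the arrays from 124.7 to 124.9 in ΔSAP, 104.9 to 105.1 in mutB1, 118.9 to 119.3 in FL and 118.8 to 119.2 in the control line. This sum did not overlap between mutB1 and the other lines.

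Esrp1 and Esrp2 are RNA-binding proteins that set the epithelial pattern of alternative splicing in genes such as Fgfr2 and Cd44, and they are lost when epithelial cells turn mesenchymal. Rbm47 is an RNA-binding protein of epithelia that acts on splicing and RNA stability. Grhl1 and Grhl2 are grainyhead-like transcription factors that switch on genes of cell junctions, and Ovol1 is a zinc finger repressor that opposes mesenchymal genes. Elf3 and Ehf are ETS factors of epithelia. Zeb and Snai repressors act in the opposite direction, through E-box elements of epithelial genes.

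The question put to the lines by the series design is which genes differ when the B1 or SAP region of Mkl1 is altered. Among the 8 genes, Esrp2, Grhl2 and Elf3 were lower in mutB1 than in each other line (limma adjusted p of at most 0.01). The shares of all probe sets that passed are given below. Where arrays are said not to overlap, this describes the values, and the share of all probe sets without overlap was not counted. The ΔSAP line had the highest mean of Grhl2, Ovol1 and Rbm47, and it was the only line with an Esrp1 mean above the lowest array median. Grhl1 and Ehf were low in all 4 lines. The line means spanned 4.20 for Esrp1, 2.54 for Grhl2, 1.50 for Esrp2, 1.48 for Ovol1, 0.77 for Elf3, 0.35 for Rbm47, 0.29 for Grhl1 and 0.26 for Ehf on the log2 scale.

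**Figure D1:**
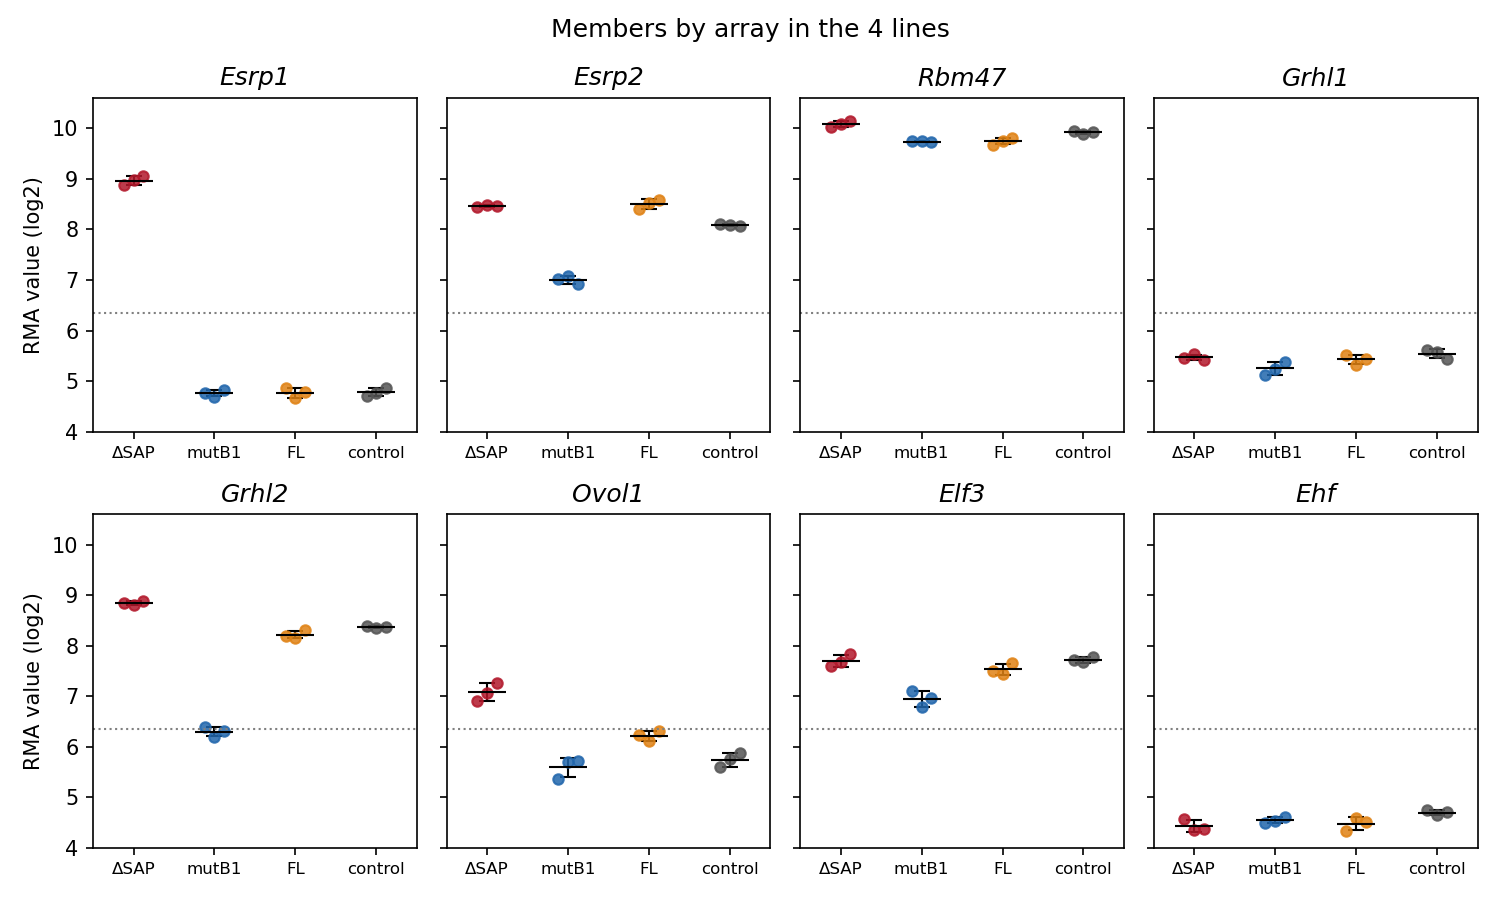
RMA log2 signal (vertical axis) of the 8 genes on the 12 arrays, in panels by gene and columns by line (ΔSAP, mutB1, FL, control). Points are arrays, the wide bar is the mean, the error bars are the SD of 3 arrays, and the dotted line is the lowest array median, 6.35. Esrp1 averages 8.96 in ΔSAP and 4.76 to 4.78 in the other lines, and Esrp2, Grhl2 and Elf3 are lowest in mutB1.

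Esrp1 (probe set 10511560) read 8.87, 8.97 and 9.05 in the ΔSAP cultures, 4.77, 4.69 and 4.82 in mutB1, 4.86, 4.67 and 4.79 in FL, and 4.71, 4.77 and 4.86 in the control line. Every ΔSAP array was far above every other array, and the arrays of the other 3 lines overlapped. The means were 8.96 ± 0.09 in ΔSAP, 4.76 ± 0.06 in mutB1, 4.77 ± 0.10 in FL and 4.78 ± 0.08 in the control line (SD, n = 3 each). The ΔSAP mean was 18.4-fold above mutB1, 18.3-fold above FL and 18.2-fold above the control line. The other 3 means lay under the lowest array median and may be background, so these ratios can only be read as minimum values. The remaining differences between lines were -0.01 (mutB1 minus FL), -0.02 (mutB1 minus control) and -0.01 (FL minus control).

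To place this step, probe sets were sought that were on in 1 line alone: every array of the line above the other 9 arrays, the line mean at least 2 log2 units above each other mean, and the other means low. Over all probe sets, ΔSAP had 6, mutB1 3, FL 1 and the control line 0. Counted as genes, by the brightest single-symbol probe set, ΔSAP had 4, mutB1 3, FL 0 and the control line 0. Esrp1 had the highest step of the 4 ΔSAP genes, 4.19 above the next line. It was followed by Pate9, a gene of the prostate and testis expressed family (3.07), Mid2, a microtubule-associated ubiquitin ligase (2.29), and Tbc1d30, a Rab GTPase-activating protein (2.03). Since Esrp1 was chosen for this pattern, its place restates that choice, and each step is measured against means that may be background, so the order holds only as measured.

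Genes were also ranked by how closely their 4 line means, each centred on the gene's own average, followed those of Esrp1. The measure was the root mean square difference over the 4 lines in log2 units, and the order is a description. The nearest was Tmem54, at 0.39, with means of 10.15 in ΔSAP, 6.09 in mutB1, 6.98 in FL and 6.24 in the control line. Pate9 followed at 0.43 and its family member Pate14 at 0.54, whose probes may share signal with close relatives. Prss22, a serine protease of airway epithelium, stood at 0.63, with 10.07 in ΔSAP, 6.86 in mutB1, 7.46 in FL and 7.39 in the control line. Behind them came Mid2 (0.72), Sh2d1b1 (0.78), Kctd12b (0.81), Tbc1d30 (0.89), the calcium-binding protein gene Gca (0.89) and Scin, an actin-severing protein (0.91). In several of these genes FL or mutB1 stood above the control line, whereas the Esrp1 means of mutB1, FL and control lay within 0.02 of each other. Ranked instead by Pearson correlation over the 12 arrays, among 902 genes whose line means spanned at least 1 log2 unit, 4 of the 10 nearest genes were the same.

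**Figure D2:**
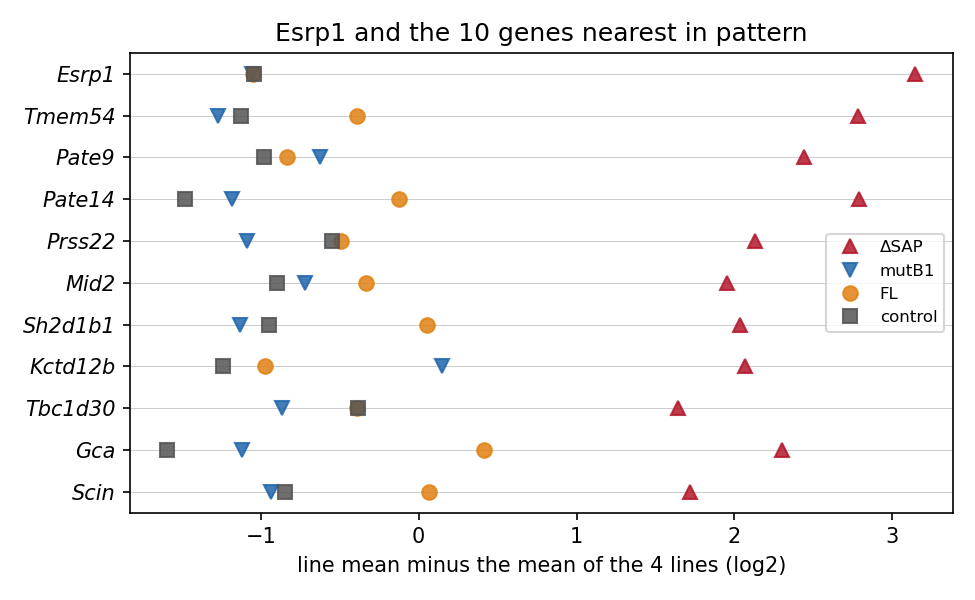
Line mean minus the mean of the 4 lines (log2, horizontal axis) for Esrp1 and the 10 genes nearest to it in pattern, in order of rank down the page. Symbols are lines; all 11 genes are highest in ΔSAP, and FL lies clearly above mutB1 and control in Tmem54, Pate14, Sh2d1b1, Gca and Scin but not in Esrp1.

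The genes next to Esrp1 on the chromosome did not share its step. The 5 measured genes on each side in the RefSeq order (Ndufaf6, Trp53inp1, Ccne2, Ints8, Dpy19l4, then Virma, Rad54b, Gem, Cdh17 and Pdp1) differed between ΔSAP and FL by -0.53 to 0.36 on the log2 scale. In that comparison 2 were higher and 2 lower at a limma adjusted p of at most 0.01, beside 5.7% and 5.73% of all probe sets. Trp53inp1, a p53-induced stress gene, rose by 0.36 (limma adjusted p = 0.000483), and Gem, a small GTP-binding protein gene, was lowest at -0.53 (limma adjusted p = 0.000101). Against mutB1 the 10 neighbours spanned -0.40 to 0.46 and against the control line -0.20 to 0.73. In the 3 comparisons of ΔSAP, 0 of the 10 passed with a fold of at least 2. Over all probe sets 0.503% were called with this fold in either direction against FL. The share called higher was 0.883% against mutB1 and 0.958% against the control line, so 0 of 10 is near these shares.

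**Figure D3:**
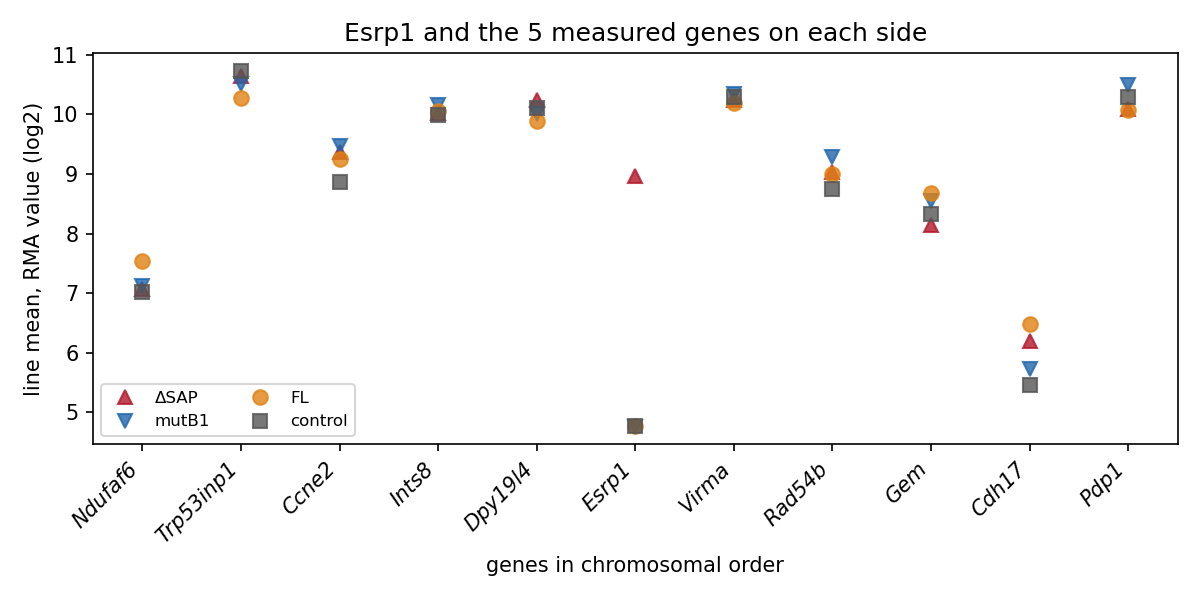
Line mean (RMA log2 signal, vertical axis) of Esrp1 and the 5 measured genes on each side of it, in chromosomal order along the horizontal axis. Symbols are lines; Esrp1 alone has a ΔSAP mean 4.19 above the next line, and its 10 neighbours differ between ΔSAP and the other 3 lines by at most 0.73. Levels of different genes are not comparable.

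Esrp2, the paralog of Esrp1 (probe set 10581455), read 8.44, 8.49 and 8.46 in ΔSAP, 7.03, 7.07 and 6.91 in mutB1, 8.40, 8.52 and 8.59 in FL, and 8.11, 8.08 and 8.07 in the control line. All 3 mutB1 arrays lay below the other 9 arrays, and the ΔSAP and FL arrays overlapped. The means were 8.46 ± 0.03 in ΔSAP, 7.005 ± 0.08 in mutB1, 8.50 ± 0.10 in FL and 8.09 ± 0.02 in the control line. Esrp2 was 2.82-fold lower in mutB1 than in FL, a change of -1.50 ± 0.06 (SE, limma adjusted p = 2.89e-08). The ΔSAP mean exceeded the mutB1 mean 2.75-fold (1.46 ± 0.06, limma adjusted p = 3.31e-08). Between ΔSAP and FL the change was -0.04 with a 95% interval of -0.16 to 0.09 (limma adjusted p = 0.733). Against the control line, Esrp2 was higher by 0.38 in ΔSAP (limma adjusted p = 0.000659) and by 0.42 in FL (adjusted p = 0.000223) and 2.12-fold lower in mutB1 (-1.08, adjusted p = 3.32e-07).

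Rbm47 (probe set 10530269) read 10.02, 10.08 and 10.15 in ΔSAP, 9.75, 9.74 and 9.72 in mutB1, 9.68, 9.75 and 9.81 in FL, and 9.95, 9.90 and 9.92 in the control line. The ΔSAP arrays were above the other 9, and mutB1 and FL overlapped. Rbm47 rose in ΔSAP by 0.34 ± 0.05 over FL (SE, limma adjusted p = 0.000519) and by 0.35 over mutB1 (adjusted p = 0.000288), and the call over FL was lost when only the 6 arrays of these 2 lines were fitted (adjusted p = 0.0151). The change in mutB1 minus FL was -0.01, with a 95% interval of -0.11 to 0.09 (limma adjusted p = 0.911). Against the control line the changes were 0.16 in ΔSAP (limma adjusted p = 0.0286), -0.19 in mutB1 (adjusted p = 0.0147) and -0.18 in FL (adjusted p = 0.014), and 0 of these 3 passed. With a further quantile normalization each of them passed (limma adjusted p = 0.00909, 0.00322 and 0.00801 in that order).

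Grhl2 (probe set 10423770) read 8.84, 8.81 and 8.88 in ΔSAP, 6.38, 6.20 and 6.32 in mutB1, 8.19, 8.16 and 8.31 in FL, and 8.38, 8.36 and 8.37 in the control line. The mutB1 arrays were lowest and the ΔSAP arrays highest, with no overlap with any other line, and the mutB1 mean of 6.30 ± 0.09 was low. The other means were 8.84 ± 0.03 in ΔSAP, 8.22 ± 0.08 in FL and 8.37 ± 0.01 in the control line (SD, n = 3 each). Grhl2 was 3.79-fold lower in mutB1 than in FL (-1.92 ± 0.05, SE, limma adjusted p = 4.18e-09) and 4.20-fold lower than in the control line (-2.07, adjusted p = 2.23e-09). In ΔSAP it was 1.54-fold higher than in FL (0.62, limma adjusted p = 3.19e-05) and 0.47 higher than in the control line (adjusted p = 0.000114). The ΔSAP line exceeded mutB1 5.83-fold (2.54, limma adjusted p = 4.74e-10). In FL minus control the change was -0.15, with a 95% interval of -0.27 to -0.03 (limma adjusted p = 0.0671).

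Grhl1, the close relative of Grhl2 (probe set 10394954), was low in every line, with arrays from 5.42 to 5.53 in ΔSAP, 5.13 to 5.38 in mutB1, 5.33 to 5.52 in FL and 5.44 to 5.61 in the control line. Its 6 differences between lines ranged from -0.29 (mutB1 minus control, limma adjusted p = 0.0198) to 0.22 (ΔSAP minus mutB1, adjusted p = 0.0619), and 0 of the 6 passed.

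Ovol1 (probe set 10465106) read 6.91, 7.07 and 7.26 in ΔSAP, 5.37, 5.69 and 5.72 in mutB1, 6.23, 6.11 and 6.32 in FL, and 5.60, 5.76 and 5.87 in the control line. ΔSAP was highest and FL next, each apart from the other lines, and mutB1 and control overlapped. Only the ΔSAP mean, 7.08 ± 0.18, was above the lowest array median, against 5.59 ± 0.19 in mutB1, 6.22 ± 0.10 in FL and 5.75 ± 0.14 in the control line (SD, n = 3 each). Ovol1 rose in ΔSAP 1.81-fold over FL (0.86 ± 0.12, SE, limma adjusted p = 0.000585), 2.80-fold over mutB1 (1.48, adjusted p = 8.08e-06) and 2.52-fold over the control line (1.33, adjusted p = 1.83e-05). It was lower in mutB1 than in FL (-0.63, limma adjusted p = 0.00255), a call that was lost without the first FL array (adjusted p = 0.0108) or the third FL array (adjusted p = 0.0125). Between mutB1 and control the change was -0.15, with a 95% interval of -0.41 to 0.11 (limma adjusted p = 0.466), and in FL minus control it was 0.48 (adjusted p = 0.0116).

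Elf3 (probe set 10358027) read 7.59, 7.68 and 7.83 in ΔSAP, 7.10, 6.79 and 6.96 in mutB1, 7.50, 7.45 and 7.66 in FL, and 7.72, 7.67 and 7.77 in the control line. The mutB1 arrays lay below all others, and ΔSAP overlapped with FL and with control. Elf3 fell in mutB1 1.50-fold relative to FL (-0.59 ± 0.09, SE, limma adjusted p = 0.000582) and 1.71-fold relative to the control line (-0.77, adjusted p = 0.000128). The ΔSAP mean exceeded the mutB1 mean 1.68-fold (0.75, limma adjusted p = 0.000132). Between ΔSAP and FL the change was 0.16, with a 95% interval of -0.03 to 0.36 (limma adjusted p = 0.271). The change from control was -0.02 in ΔSAP (limma adjusted p = 0.916) and -0.18 in FL (adjusted p = 0.177). Ehf, the other ETS factor (probe set 10485445), was low everywhere, with arrays from 4.36 to 4.57 in ΔSAP, 4.50 to 4.61 in mutB1, 4.34 to 4.59 in FL and 4.65 to 4.74 in the control line, and it passed in 0 of 6 comparisons. Its farthest change was -0.26 (ΔSAP minus control, limma adjusted p = 0.0292).

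Promoters of Elf3, Rbm47 and Grhl1 were in the RefSeq table used (GRCm38.p6). The table held none for Esrp1, Esrp2, Grhl2, Ovol1 or Ehf. Elf3 is the one of these 3 that was lower in mutB1 than in FL, so the 250 bases before its start are shown, 5′ to 3′ on the minus strand of chr1:135258473-135258722. The capitals mark its single match to the E-box CAGGTG, a sequence bound by Zeb and Snai repressors, here read as the reverse complement and starting 140 bases before the start.
Elf3: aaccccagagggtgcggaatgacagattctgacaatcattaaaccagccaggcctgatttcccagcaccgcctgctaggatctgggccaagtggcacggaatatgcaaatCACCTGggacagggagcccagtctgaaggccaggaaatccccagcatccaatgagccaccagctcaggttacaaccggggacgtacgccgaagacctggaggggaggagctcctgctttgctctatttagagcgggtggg
On both strands the same window was searched for AACNGGTT, an element of grainyhead factors, CCGGAA, an ETS core, and the CArG box, the element of serum response factor. None of these letters was found in the Elf3 window. The table gave 3 starts for Rbm47 and 2 for Grhl1, and only the window before the outermost start of each was searched. Those windows held no match to any of the 4 motifs. Over all 32851 promoters of the table, the share with a match in the same 250 bases was 17.2% for CAGGTG, 1.79% for AACNGGTT, 12% for CCGGAA and 1.47% for the CArG box. A match is a description of letters, not a bound site.

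Counted over the 7 tested genes at a limma adjusted p of at most 0.01, 4 were lower (Esrp2, Grhl2, Ovol1 and Elf3) and 0 higher in mutB1 than in FL. Over all 34760 probe sets 8.82% were lower and 9% higher in that comparison. In ΔSAP against FL, 3 were higher (Rbm47, Grhl2 and Ovol1) and 0 lower, beside 5.7% higher and 5.73% lower over all probe sets. In ΔSAP against mutB1, 5 of the 7 were higher and 0 lower, beside 7.07% and 8%. These first comparisons share FL or mutB1 arrays with each other, so they are not separate lines of evidence.

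Against the control line, 3 of the 7 were higher in ΔSAP (Esrp2, Grhl2 and Ovol1), beside 6.96% of all probe sets. In mutB1, 3 were lower (Esrp2, Grhl2 and Elf3), beside 6.89%. In FL, 1 was higher (Esrp2), beside 9.61%, and 0 were lower, beside 10.4%. This last count moved to 2 or 3 under 4 other settings, and to 2 without the third FL, the first mutB1 or the third ΔSAP array. Rbm47 then passed as lower in FL (limma adjusted p = 0.00561 to 0.00906) or Ovol1 as higher. The 3 comparisons share the control arrays. The median change of the 7 genes was -0.59 in mutB1 minus FL, 0.16 in ΔSAP minus FL, 0.75 in ΔSAP minus mutB1, 0.16 in ΔSAP minus control, -0.29 in mutB1 minus control and -0.15 in FL minus control. The medians over all probe sets in these comparisons lay between -0.03 and 0.00.

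The series design text also asks for a minimum fold of 2 and an average signal of 4 or more, and all 8 genes had such an average, the lowest being 4.54 for Ehf. With these filters Esrp2 and Grhl2 were called lower in mutB1 than in FL, beside 0.972% of all probe sets called lower. In ΔSAP against FL 0 of the 7 were called, beside 0.503% called in either direction, and 3 had passed without the fold. Esrp2, Grhl2 and Ovol1 were called higher in ΔSAP than in mutB1, beside 0.883%. Ovol1 was called higher in ΔSAP than in the control line, beside 0.958%, and Esrp2 and Grhl2 lower in mutB1 than in the control line, beside 0.489%. In FL against control 0 of the 7 were called, beside 1.83% in either direction.

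**Figure D4:**
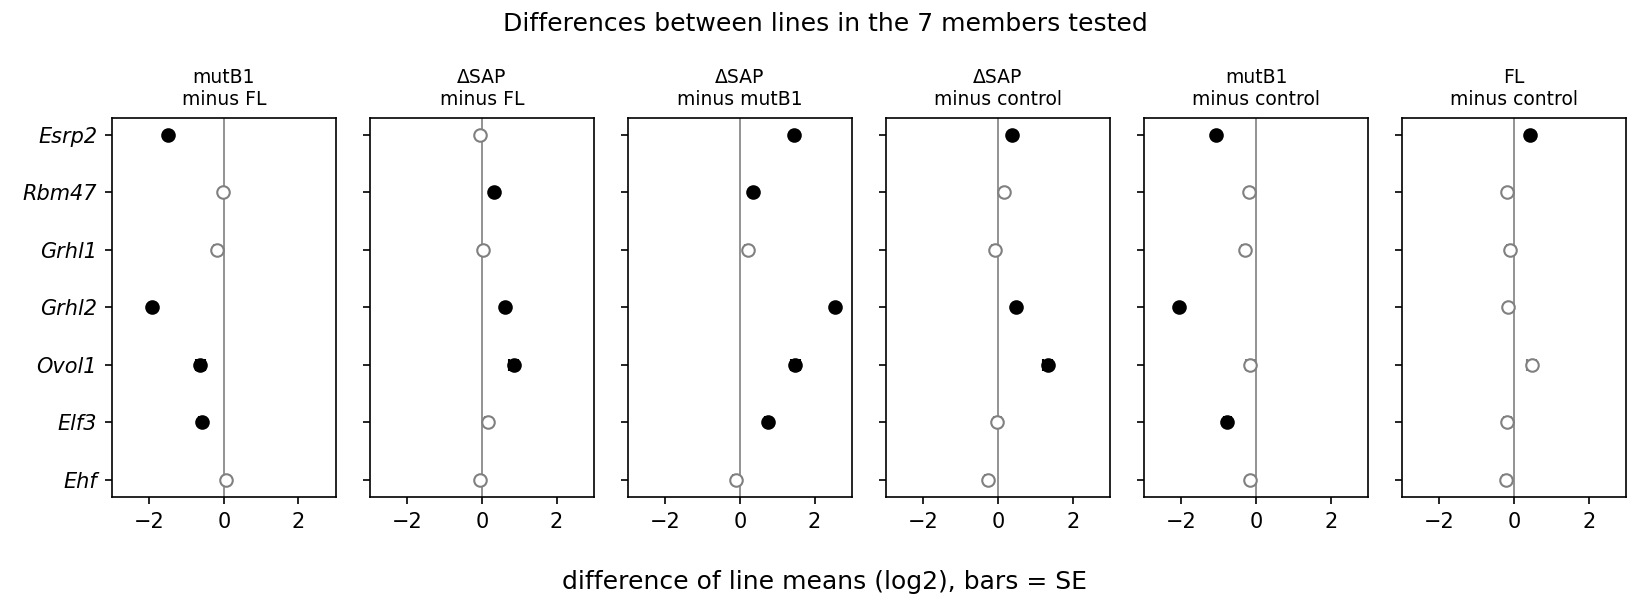
Difference of line means (log2, horizontal axis) of the 7 tested genes (rows) in 6 comparisons (panels). Bars are SE and are hidden by most points; filled points passed the limma adjusted p of 0.01 and open points did not. Grhl2 lies farthest from 0 in the comparisons with mutB1, and Ehf and Grhl1 are open in every panel.

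For each tested gene whose line means spanned at least 1 log2 unit, the 3 genes nearest in pattern were taken by the same measure as for Esrp1. The nearest to Esrp2 was Cldn3, a tight junction claudin, at 0.06 log2 units, with means of 10.996 in ΔSAP, 9.51 in mutB1, 10.96 in FL and 10.71 in the control line. Tspan12, a tetraspanin, followed at 0.08 and Slc25a48, a mitochondrial carrier, at 0.09. For Grhl2 the nearest were Kdf1, a regulator of keratinocyte differentiation (0.12), the P-type ATPase gene Atp13a4 (0.14) and Gpa33, a surface antigen of intestinal epithelium (0.15). For Ovol1 they were Pstpip2, a membrane-bending adaptor of the cytoskeleton (0.04), Sorcs2, a sortilin-family receptor (0.07), and the autophagy gene Atg9b (0.08). All 12 arrays enter these measures, and with 4 line means many genes can lie close.

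Grhl2 is known from mouse and human epithelia for acting on junction, membrane and polarity genes. A list of 31 epithelial genes linked to it was written from general knowledge and is not a curated set of its targets, and 30 of them were measured. In mutB1 against FL, 16 of the 30 were lower and 3 higher (limma adjusted p of at most 0.01), beside 8.82% and 9% of all probe sets. The median change was -0.26. The 4 with the largest measured change were Mal2, a protein of apical transport (-3.09), Marveld2, tricellulin (-2.64), the desmosomal gene Dsp (-2.58) and St14, the membrane protease matriptase (-2.44), with limma adjusted p of 1.42e-09, 6.78e-09, 1.1e-09 and 1.42e-09. Mal2 and Marveld2 were low in mutB1 (5.78 and 5.76), so their changes may be understated and their order holds only as measured. The genes in this list were chosen with results of these data known, and the count is no separate evidence of a direction.

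In ΔSAP against FL, 16 of the 30 were higher and 0 lower, beside 5.7% and 5.73% of all probe sets, with a median change of 0.19. Epcam, an epithelial adhesion molecule, rose by 1.88 (limma adjusted p = 3.14e-07), the receptor gene Erbb3 by 1.55 (adjusted p = 1.21e-06), the claudin Cldn4 by 1.26 (adjusted p = 6.6e-08) and Mal2 by 1.17 (adjusted p = 3.79e-06). In ΔSAP against mutB1, 19 were higher and 0 lower, beside 7.07% and 8%, with a median of 0.61. Mal2 (4.26), Epcam (3.74), Dsp (3.44) and Cldn4 (3.16) led. Against the control line, 15 were higher and 1 lower in ΔSAP (median 0.22), 0 higher and 18 lower in mutB1 (median -0.34), and 10 higher and 6 lower in FL (median 0.04). Over all probe sets 6.96% were higher and 7.83% lower in ΔSAP, 5.83% and 6.89% in mutB1, and 9.61% and 10.4% in FL. Mean Epcam signal was 10.14 in ΔSAP, 6.41 in mutB1, 8.26 in FL and 8.44 in the control line.

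**Figure D5:**
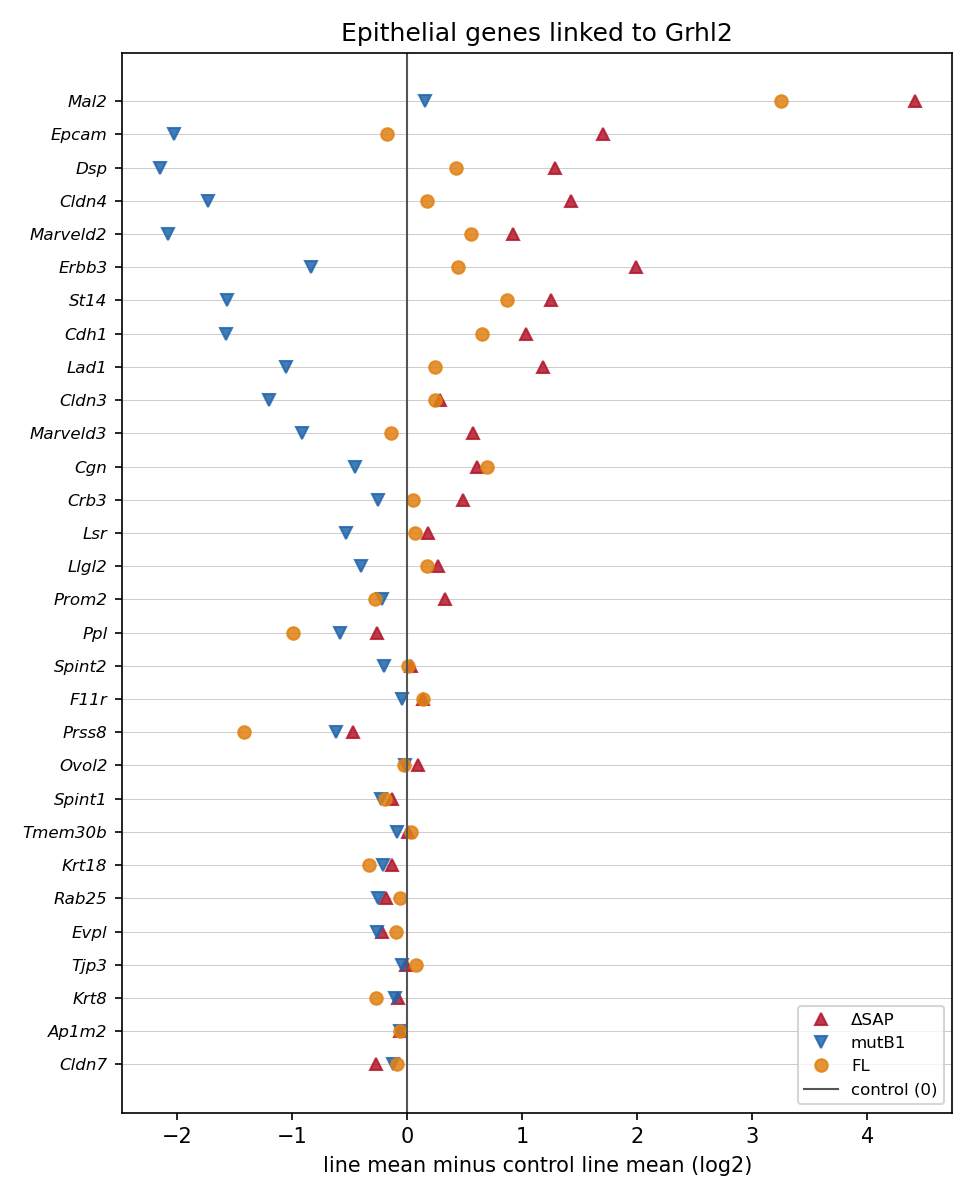
Line mean minus the control line mean (log2, horizontal axis) for the 30 measured epithelial genes linked to Grhl2 (rows), for ΔSAP, mutB1 and FL. The vertical line is the control line. Mal2, Epcam, Dsp, Cldn4 and Marveld2 lie farthest apart between ΔSAP and mutB1, and Prss8 and Ppl have the FL points farthest below control. Cldn7, Rab25, Ap1m2, Tjp3, Tmem30b and Ovol2 passed in none of the 6 comparisons.

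Promoters of 21 of these 30 genes were in the RefSeq table, as 25 windows of 250 bases. A CAGGTG match on either strand was present in 60% of the windows, against 17.2% of all promoters, AACNGGTT in 8%, against 1.79%, CCGGAA in 20%, against 12%, and the CArG box in 0 of 25, against 1.47%. By gene, 13 of the 21 had a CAGGTG match. Windows of the same gene can overlap, as for Crb3, and are then not independent. In the lists described below, CAGGTG was in 27.8% of windows of the close relatives and 26.3% of those of Esrp targets. It was in 16.7% for other splicing regulators and 7.14% for the repressors and mesenchymal regulators. The windows around 5 matches are shown for the 2 genes of the list with the grainyhead letters and for Epcam and Cldn4, which were among the 4 farthest apart between ΔSAP and mutB1. The capitals mark the motif, and the coordinates are those of GRCm38.p6.
Epcam (chr17:87635780-87635809, plus strand, 187 bases before the start): gccagtagggccCACCTGctggaggaccgg
Epcam (chr17:87635948-87635977, plus strand, 19 bases before the start): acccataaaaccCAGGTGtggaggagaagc
Cldn4 (chr5:134946935-134946964, minus strand, 14 bases before the start): ggagctttaactgcagCACCTGtggccgcc
Rab25 (chr3:88548363-88548392, minus strand, 102 bases before the start): agcagacacctAACCTGTTtaacctgtctg
Cgn (chr3:94786493-94786522, minus strand, 29 bases before the start): tcctggggagtAACAGGTTggtgggcgggg
The motifs in capitals overlap none of the others searched. Cgn, cingulin of the tight junction, was lower in mutB1 than in FL (-1.15, limma adjusted p = 4.71e-05), whereas Rab25, a small GTPase of epithelial recycling, was low in every line and its change there was -0.19 (adjusted p = 0.0996). The E-box was also present in genes of the list that did not pass in these comparisons, such as Cldn7 and Ap1m2.

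Of 13 close relatives of the 8 genes, 1 was higher and 2 lower in mutB1 than in FL, beside 9% and 8.82% of all probe sets. In ΔSAP, 2 were higher and 1 lower than in FL, beside 5.7% and 5.73%, and 1 was higher and 0 lower than in mutB1, beside 7.07% and 8%. The median changes were 0.01, -0.02 and 0.01. Against the control line, 2 were higher and 1 lower in ΔSAP, 1 higher and 1 lower in mutB1, and 4 higher and 1 lower in FL. Over all probe sets 6.96% were higher and 7.83% lower in ΔSAP, 5.83% and 6.89% in mutB1, and 9.61% and 10.4% in FL. Tfcp2 had the largest change in FL against control (-0.62, limma adjusted p = 1.41e-05). Grhl3, Ovol2, Ovol3, Elf5 and Spdef, the epithelial relatives, passed in none of the 6 limma comparisons. All of them except Spdef were low in all 4 lines and may be background, so their lack of a call does not show a stable level. Tfcp2l1, a grainyhead-family factor, was higher in ΔSAP than in FL by 0.38 (limma adjusted p = 0.0031) and than in mutB1 by 0.41 (adjusted p = 0.00153). Its means were low in all 4 lines (6.29 in ΔSAP, 5.88 in mutB1, 5.91 in FL and 6.07 in control) and may be background. Tfcp2, of the same family, was higher in mutB1 than in FL by 0.30 (limma adjusted p = 0.00256).

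Of 19 measured repressors of epithelial genes and regulators of the mesenchymal state, 7 were higher and 3 lower in mutB1 than in FL, beside 9% and 8.82% of all probe sets, with a median of 0.03, and 9 did not pass. Id1, an inhibitor of basic helix-loop-helix factors, rose by 1.13 (limma adjusted p = 2.63e-08) and the T-box repressor Tbx2 by 0.68 (adjusted p = 6.71e-05). The change of the zinc finger repressor Klf8 was -0.50 (limma adjusted p = 0.000799), but Klf8 was low in all 4 lines and may be background. Among the Zeb, Snai and Twist factors, Zeb2 was higher in mutB1 than in FL by 0.31 (limma adjusted p = 5.48e-05) and Snai1 by 0.33 (adjusted p = 0.000417), whereas the change of Twist1 was -0.31 (adjusted p = 0.000405). Zeb1 had a change of -0.16 there (limma adjusted p = 0.214). It was higher than in the control line by 0.52 in ΔSAP (limma adjusted p = 0.00128), 0.55 in mutB1 (adjusted p = 0.001) and 0.71 in FL (adjusted p = 0.000102). Zeb1 means were low in ΔSAP (6.26), mutB1 (6.29) and control (5.75), and only FL (6.45) was above the lowest array median. These changes may therefore involve background. Snai2 and Snai3 were low in all 4 lines and passed in none of the 6 comparisons. In ΔSAP against FL, 6 were higher and 0 lower, beside 5.7% and 5.73%, with 13 not passing and a median of 0.03. Foxc2, a forkhead factor of mesenchymal cells (0.97, limma adjusted p = 7.48e-06), and Id3 (0.48, adjusted p = 2.23e-05) led. In ΔSAP against mutB1, 6 were higher and 4 lower, beside 7.07% and 8%, with a median of 0.00. The ΔSAP line, with the highest Esrp1, Grhl2 and Ovol1, also exceeded FL in Foxc2.

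Targets of Esrp proteins were read at the gene level, since the deposited values summarize a gene and give no exon inclusion. Of 16 genes measured from a list written from general knowledge of Esrp-regulated exons, which is not a curated set, 4 were higher and 0 lower in ΔSAP than in FL, beside 5.7% and 5.73% of all probe sets, with a median of 0.10. These were Ralgps2 (0.49, limma adjusted p = 0.00152), the adhesion receptor Cd44 (0.46, adjusted p = 1.54e-05), Osbpl3 (0.29, adjusted p = 0.00183) and Ctnnd1, p120-catenin (0.27, adjusted p = 0.000872). In mutB1 against FL, 7 were higher and 2 lower, beside 9% and 8.82%, with a median of 0.09, led by Ralgps2 (1.46, limma adjusted p = 4.21e-07). In ΔSAP against mutB1, 3 were higher and 5 lower, beside 7.07% and 8%, with a median of -0.07. Relative to control more of them were lower than higher: 3 higher and 7 lower in ΔSAP (median -0.13), 3 higher and 4 lower in mutB1 (median -0.05), and 3 higher and 8 lower in FL (median -0.18). Over all probe sets 6.96% were higher and 7.83% lower in ΔSAP, 5.83% and 6.89% in mutB1, and 9.61% and 10.4% in FL.

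Of 34 other splicing regulators measured, 0 passed in limma in ΔSAP against FL, where 10 had an unadjusted p under 0.05, and the median change was -0.04. Over all probe sets 5.7% were higher and 5.73% lower there. In mutB1 against FL, 4 were higher and 2 lower, beside 9% and 8.82%, with a median of 0.06. Mbnl3, a muscleblind factor, was lowest (-0.53, limma adjusted p = 8.37e-06), and Celf2 (0.45, adjusted p = 7.37e-05) and Ptbp2, the neuronal polypyrimidine tract binding protein (0.34, adjusted p = 0.000178), rose. In ΔSAP against mutB1, 3 were higher and 4 lower, beside 7.07% and 8%, with a median of -0.08. None of the 34 reached a fold of 2 in any of the 6 comparisons. Over all probe sets 0.503% were called with this fold in either direction in ΔSAP against FL and 1.83% in FL against control.

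Markers of other cell types were read beside these results. Of 12 epithelial markers, several of which are also in the list linked to Grhl2, 8 were lower and 2 higher in mutB1 than in FL, and 10 were higher and 0 lower in ΔSAP than in FL. Over all probe sets 8.82% were lower and 9% higher in mutB1 than in FL, and 5.7% higher and 5.73% lower in ΔSAP than in FL. The summed log2 signal of 10 fibroblast markers ranged over the arrays from 60.2 to 61.2 in ΔSAP, 65.7 to 66.2 in mutB1, 60.7 to 61.2 in FL and 62.1 to 63.0 in the control line, with 4 of the 10 means at or above 6.35 in ΔSAP and 5 in each other line. The receptor genes Pdgfrb (3.96, limma adjusted p = 1.92e-09) and Pdgfra (1.49, adjusted p = 6.13e-08) were the 2 that passed in mutB1 against FL. In mutB1 minus control the change was 3.45 for Pdgfrb (limma adjusted p = 3.9e-09) but 0.11 for Pdgfra (adjusted p = 0.303). Pdgfra was lower in FL than in the control line (-1.38, limma adjusted p = 7.96e-08). The defining collagen genes Col1a1 and Col3a1 averaged 7.14 and 6.97 in mutB1, against 7.05 and 6.95 in FL, and Lum, Fap and Postn were low in all 4 lines. The sum of 9 leukocyte markers ranged from 48.1 to 49.5 in ΔSAP, 48.4 to 49.1 in mutB1, 49.2 to 49.5 in FL and 48.6 to 49.2 in the control line. Ptprc, the pan-leukocyte marker, was low in all 4 lines, and Cd68, which other cells also express, was the 1 that passed in mutB1 against FL (-1.05, limma adjusted p = 2.63e-05). The part of these shifts in the results for the 8 genes was not tested.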

How the data were processed

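RNA of 12 cultures was measured, 100 ng of each amplified. The deposited log2 values were made by the authors with RMA in the affy package of Bioconductor 2.4, per the series design text, and R 2.10.0 was used, per the submitters' processing notes. The sources used here do not give the probe set definition, the genome build or scan batches. Of 34760 probe sets, 21640 had 1 gene symbol in GEO's platform annotation of 2016, 1321 several and 11799 none, and 21553 of the first kind were matched by identifier to RefSeq genes of GRCm38.p6, which gave names, neighbours and promoters. A gene was represented by its brightest single-symbol probe set.

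Lines were compared with lmFit and eBayes of limma 3.58.1 (R 4.3.3), in 1 fit of 12 arrays with 4 line means, Benjamini-Hochberg adjusted over all 34760 probe sets. The fit was tested on simulated data. A gene passed at an adjusted p of at most 0.01. The design text's rule adds a fold of 2 and a mean of 4. The 8 genes and the gene lists were chosen with earlier results of these data known. From each list up to 4 genes with the largest change among those that passed were named, with others where a sentence needed them, chosen after their values were seen. The alternatives were scaling, variance model, arrays in the fit, replicate block, mean filter, probe sets tested and leaving out each array.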

Additional observations from a re-analysis of the deposited data

How the results depend on the processing

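The data hold 3 cultures of 1 stable line per construct, so no value measures a spread between independent lines, and a mean under the lowest array median may be background. Over all alternatives to single tested genes, with each array left out in turn, 492 values kept direction and side of the threshold, 6 reversed, 4 newly passed and 2 no longer passed. With the other settings 239 kept both, 1 reversed, 11 newly passed and 1 no longer passed. Leaving out an array of a line outside the comparison cannot alter the change itself. The same holds for the variance model, the replicate block, the fit of 6 arrays and the choice of probe sets tested. In those settings only the adjusted p could move, so their kept directions were fixed in advance. The reversals were all of changes near 0 that did not pass. Rbm47 in mutB1 minus FL was 0.038 with median centring of each array, and with 1 array left out it ranged from -0.044 to 0.023 (positive without the third FL array). With 1 array left out, ΔSAP minus FL ranged from -0.090 to 0.0059 for Esrp2 (positive without the third FL array), from -0.012 to 0.083 for Grhl1 (negative without the second FL array) and from -0.11 to 0.015 for Ehf (positive without the second FL array). Elf3 in ΔSAP minus control ranged from -0.081 to 0.036 (positive without the third control or the first ΔSAP array). The number of tested genes that passed in FL against control, 1 as reported, was 2 with a further quantile normalization, 3 with trended and robust variances, 2 with the replicate number as a block and 3 with only single-symbol probe sets tested. With 1 array left out it ranged from 1 to 2, with 2 without the third FL array, the first mutB1 array or the third ΔSAP array. The genes that then passed were Rbm47 (lower in FL) or Ovol1 (higher in FL, adjusted p = 0.00189 with the replicate block). In mutB1 against control 5 genes passed, in place of 3, with only single-symbol probe sets in both the fit and the adjustment. Rbm47 and Grhl1 were added. With all probe sets tested, Rbm47 also passed there with a further quantile normalization (limma adjusted p = 0.00322) and with trended and robust variances (adjusted p = 0.00557). In ΔSAP against control Rbm47 passed with the quantile normalization (limma adjusted p = 0.00909). With 1 array left out, the genes that passed ranged from 3 to 4 in mutB1 against FL and in mutB1 against control. They stayed at 3 in ΔSAP against FL, 5 in ΔSAP against mutB1 and 3 in ΔSAP against control. The probe sets called over the whole table ranged from 522 to 581 in mutB1 against FL (556 with all arrays), 168 to 179 in ΔSAP against FL (175), 466 to 535 in ΔSAP against mutB1 (495), 446 to 516 in ΔSAP against control (467), 403 to 454 in mutB1 against control (419) and 599 to 733 in FL against control (636). Across all probe sets, deviations from the line means correlated between same-numbered arrays at -0.20 to 0.17. Such a correlation cannot show whether the cultures were paired, since single genes can still follow the replicate number. The replicate block gave 549, 175, 494, 464, 423 and 627 called probe sets in the same order. The cause of these shifts was not tested. With a step of 1 log2 unit 13, 9, 3 and 2 genes were on in ΔSAP, mutB1, FL and control alone. Each of the 8 genes had 1 single-symbol probe set in the table used, so no other could be tried. In FL against control, signal over background limits Ovol1, Grhl1 and Ehf, whose means were low in both lines.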

Other observations

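Some epithelial genes went the other way from Grhl2 in mutB1 against FL, but not in mutB1 against the control line. Of the 30 genes linked to it, 3 were higher in mutB1 than in FL: Prss8, the membrane protease prostasin (0.81, limma adjusted p = 1.61e-06), Ppl, periplakin (0.41, adjusted p = 0.000584), and the keratin Krt8 (0.16, adjusted p = 0.00363). All 3 were lower in FL than in the control line, with changes of -1.42 for Prss8 (limma adjusted p = 2.09e-08), -0.997 for Ppl (adjusted p = 8.55e-07) and -0.27 for Krt8 (adjusted p = 0.000105). In mutB1 minus control the change was -0.62 for Prss8 (limma adjusted p = 1.53e-05) and -0.59 for Ppl (adjusted p = 7.29e-05). For Krt8 it was -0.11 and did not pass (limma adjusted p = 0.0444). Mean Prss8 signal was 9.94 in ΔSAP, 9.79 in mutB1, 8.99 in FL and 10.41 in the control line, so the FL line was the lowest of the 4. Mal2 stood apart in another way: it averaged 10.04 in ΔSAP, 5.78 in mutB1, 8.87 in FL and 5.63 in the control line, and the change in mutB1 minus control was 0.15 (limma adjusted p = 0.197).

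The genes beside the other 7 followed genes were also read, 3 on each side of each. None of these neighbours passed limma with a fold of at least 2 in any of the 6 comparisons. Few probe sets were called with this fold, 0.503% in either direction in ΔSAP against FL and 1.83% in FL against control, so a count of 0 is near that share. Around Grhl2, 0 of 6 passed at a limma adjusted p of 0.01 in any comparison, where 5.7% to 10.4% of all probe sets passed in each direction. Their changes ranged from -0.28 to 0.21, beside the Grhl2 change of -1.92 in mutB1 against FL.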
